A study of Mus musculus with 35 samples.

Results

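The laminin and integrin chains of the mouse mammary gland were examined in 6 sorted cell subpopulations and 2 reproductive histories. Members were all genes with a probe set of their own whose symbol follows the naming of laminin alpha, beta or gamma chains, or of integrin alpha or beta chains. There were 36 members among 19937 genes: 10 laminin chains, 18 integrin alpha chains and 8 integrin beta chains. Where a gene had several probe sets, that of highest mean signal across the 35 samples stood for it.

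Mating of the parous mice took place at an age of 42 days, after which 21 days were given to lactation and 40 days to involution, in which the gland regresses once the pups are weaned. Nulliparous mice were virgins of the same age. The strain and the genotype were not given in the sources used here, and no other agent was named for either history. The 4th mammary glands of 5 mice were pooled for each sample, and replicates were taken as separate pools. The subpopulations were stromal cells, total epithelial cells, luminal Sca1- cells, luminal Sca1+ cells, basal CD49f-low cells and basal CD49f-high cells, the luminal gates being CD24+High, and the basal gates CD24+Low and Sca1-. There were 2 samples of parous basal CD49f-high cells and 3 of every other group, and the labels say that a further replicate was left out for poor hybridization. RNA came from 2000 cells in basal CD49f-high samples and from 10000 cells in all others, and was amplified before it was run on 1-colour Affymetrix arrays. CD49f is the protein of Itga6, itself one of the members, so that the gates that separate CD49f-high from CD49f-low basal cells used a member's protein.

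Laminins are trimers of an alpha, a beta and a gamma chain and form the sheet-like core of the basement membrane, on which the mammary epithelium rests. Integrins are dimers of an alpha and a beta chain that span the cell membrane; most beta partners of laminin and collagen receptors are the Itgb1 product, while the Itga6 and Itgb4 products together anchor hemidesmosomes. In the mammary gland, basal (myoepithelial) cells lie directly on the basement membrane, and luminal cells face the duct and touch the membrane only in part. Contact with laminin is known to support milk protein expression and basal cell maintenance. In sorted bulk samples, fewer cells of a type and less RNA per cell cannot be told apart.

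Values are log2 signals, with 1 unit being a doubling, and a level is compared only between samples of the same gene. A difference is given in log2 units with its standard error (SE) from limma's moderated fit. A gene was called where the adjusted p over all 19937 genes was under 0.05. Whether the samples of compared groups overlap is given as a description only. The share of all genes without overlap was not computed, so a lack of overlap adds no evidence to a call. Replicates of a group correlated across genes at r of 0.963 to 0.991. The spread was widest in basal CD49f-high cells, where the members' mean SD was 0.22 in the parous and 0.20 in the nulliparous group, against 0.11 to 0.19 elsewhere. The sorts held to their labels by marker: the 10 basal and myoepithelial markers averaged 10.00 to 10.49 in basal groups and 6.17 to 7.13 in luminal groups. The 11 luminal markers averaged 9.44 to 9.71 in luminal and 7.58 to 8.04 in basal groups, and the 10 fibroblast markers 10.22 to 10.42 in stromal groups and at most 7.02 elsewhere. Stromal samples varied most in epithelial signal, with a luminal marker mean of 7.32 ± 0.71 in nulliparous and 7.14 ± 0.49 in parous samples (SD, n = 3 each). For 8 members, namely Itga4, Itgal, Itgam, Itgax, Itgad, Itgae, Itgb2 and Itgb7, even the highest group mean was under 5.858, the median of all values in the table.

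Promoter sequence is shown for 4 integrin genes on which the results turn. Itga1 and Itga2 are neighbours with 0 protein-coding genes between them, although the protein-coding gene Pelo lies inside Itga1. By history, Itga1 and Itga2 moved in opposite directions in basal CD49f-high cells. Itga8 and Itgb8 shared the pattern of being high in luminal Sca1- cells and low in luminal Sca1+ cells. Each line holds the 250 bases before the annotated start, read 5′ to 3′ on the gene's strand, from RefSeq, build GRCm38.p6. The windows are chr13:115101965-115102214 for Itga1, chr13:114932101-114932350 for Itga2, chr2:12301945-12302194 for Itga8 and chr12:119238277-119238526 for Itgb8, all on the minus strand. Capitals mark matches to the motifs searched.
Itga1: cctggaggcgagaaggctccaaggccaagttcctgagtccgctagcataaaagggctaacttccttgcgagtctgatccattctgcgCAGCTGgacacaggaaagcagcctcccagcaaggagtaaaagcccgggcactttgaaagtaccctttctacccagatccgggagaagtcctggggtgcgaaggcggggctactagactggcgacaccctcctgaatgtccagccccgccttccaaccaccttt
Itga2: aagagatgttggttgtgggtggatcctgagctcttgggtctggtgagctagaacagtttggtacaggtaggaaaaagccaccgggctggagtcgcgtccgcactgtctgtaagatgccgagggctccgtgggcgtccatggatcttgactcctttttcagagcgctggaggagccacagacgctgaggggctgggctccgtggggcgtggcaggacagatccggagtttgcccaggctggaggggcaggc
Itga8: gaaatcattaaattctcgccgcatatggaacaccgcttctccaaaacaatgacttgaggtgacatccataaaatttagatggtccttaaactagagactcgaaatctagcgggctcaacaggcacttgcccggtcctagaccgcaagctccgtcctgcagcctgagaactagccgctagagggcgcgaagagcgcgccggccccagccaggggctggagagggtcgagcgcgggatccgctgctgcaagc
Itgb8: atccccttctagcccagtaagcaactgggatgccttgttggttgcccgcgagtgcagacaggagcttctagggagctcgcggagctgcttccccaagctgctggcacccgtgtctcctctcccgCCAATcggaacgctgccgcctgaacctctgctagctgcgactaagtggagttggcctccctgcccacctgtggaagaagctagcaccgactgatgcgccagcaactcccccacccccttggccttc
The motifs, searched on both strands, were the TATA box (TATAAA), the CCAAT box (CCAAT), an E-box (CAGCTG), the GC box (GGGCGG), the AP-1 site (TGANTCA), the STAT site (TTCNNNGAA) and the CArG box. None of these patterns overlapped another match in the 4 windows. Itga1 held the E-box from -163 to -158, and Itgb8 the CCAAT box from -126 to -122, counted from the start. Of 32817 promoter windows of the same length, 13% held this E-box, 33.8% the CCAAT box, 12.4% the TATA box, 32.7% the GC box, 6.75% the AP-1 site, 7.01% the STAT site and 1.47% the CArG box. The Itga2 and Itga8 windows held none of these letters, which says only that the letters are not in these windows. The windows held 10 (Itga1), 12 (Itga2), 18 (Itga8) and 12 (Itgb8) CG pairs. Of the 36 members, 23 had a promoter entry in the RefSeq table used.

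**Figure D1:**
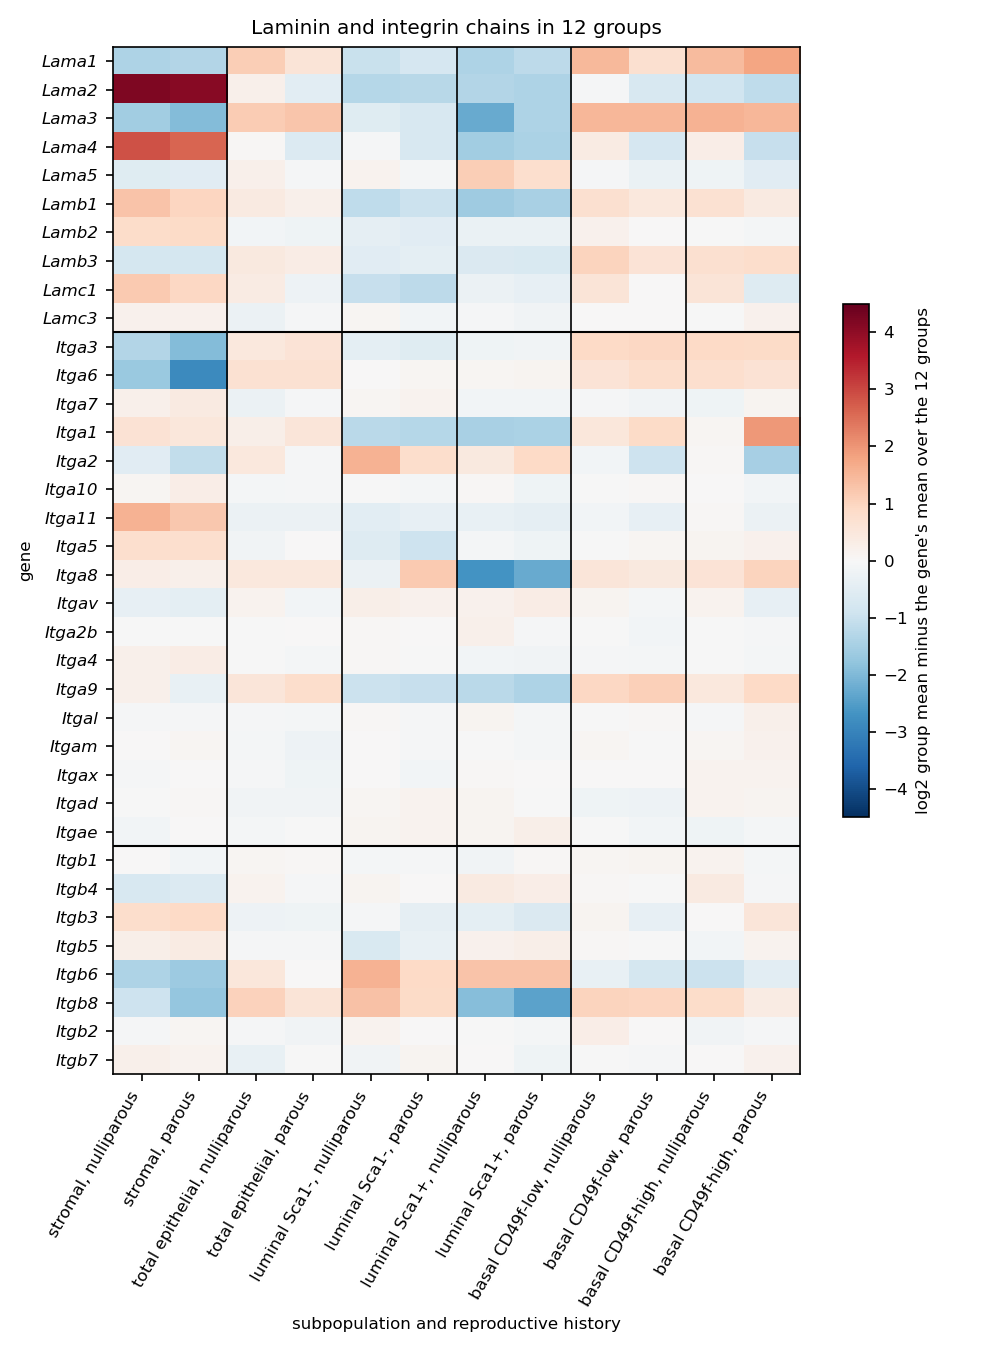
Group mean of each of the 36 members (rows) in the 12 groups (columns), as the log2 mean minus the gene's own mean over the 12 groups; red is above and blue below that mean. Lama2 and Lama4 stand out in both stromal groups, Itga8 and Itgb8 are low in both luminal Sca1+ groups, and the leukocyte chains near the foot of each integrin block vary little.

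Which chains mark which cells was asked first, with both histories averaged. Stromal cells expressed a laminin set of their own: Lama2 and Lama4, the alpha chains known from muscle, nerve and vessel basement membranes, were higher there than in total epithelial cells, while Lama1, Lama3, Lamb3, Itga6 and Itga3 were lower. Lama2 ranged from 10.42 to 10.74 in 6 stromal samples (median 10.70) and from 5.73 to 7.23 in 6 total epithelial samples (median 6.28), a difference of 4.28 (SE 0.14, limma adjusted p = 4.2e-20). Lama4 ranged from 8.80 to 9.52 (median 9.42) against 5.82 to 6.91 (median 6.25), a difference of 3.01 (SE 0.13). For both genes every stromal sample lay above every epithelial one. Lamb2 (0.99, SE 0.12), Lamc1 (0.98, SE 0.09) and Lamb1 (0.80, SE 0.10), chains that pair with them, were also higher in stroma.

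Of the 36 members, 14 were called higher in stromal cells and 12 lower, where 13.6% of all genes were called higher and 15.6% lower. The members' median size of difference was 0.66 log2 units against 0.15 over all genes. The epithelial chains were Lama3 (-2.93, SE 0.11), Lama1 (-2.19, SE 0.11), Lamb3 (-1.17, SE 0.10) and Lama5 (-0.61, SE 0.10) among laminins. Among integrins, the laminin receptor chains Itga6 (-2.94, SE 0.12), Itga3 (-2.18, SE 0.11) and Itgb4 (-0.73, SE 0.08) were lower in stroma, with Itgb8 (-2.15, SE 0.20), Itgb6 (-1.79, SE 0.20) and Itga2 (-1.02, SE 0.18). The collagen receptor chain Itga11 was higher in stroma (1.65, SE 0.09), and so was Itgb3 (1.05, SE 0.17), a vitronectin receptor chain. Itgb1, the shared beta chain, ranged from 10.67 to 10.90 in stromal and from 10.82 to 10.93 in total epithelial samples, and its difference did not pass the test.

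Basal and luminal cells were then compared, 11 samples against 12. Basal cells had more of the chains of hemidesmosomal laminin, Lama3 and Lamb3, and of Lama1 and Lamb1, and less of Lama5, Itga2 and Itgb6. Lama3 ranged from 9.09 to 9.45 in basal samples (median 9.24) and from 5.14 to 7.29 in luminal samples (median 6.74), a difference of 2.75 (SE 0.08, limma adjusted p = 4.88e-21). Lama1, an alpha chain known from early epithelial basement membranes, ranged from 7.59 to 8.88 (median 8.36) against 5.34 to 6.25 (median 5.90), a difference of 2.42 (SE 0.08). Lamb1 ranged from 8.79 to 9.33 (median 9.08) against 6.62 to 7.67 (median 7.15; difference 1.87, SE 0.07). Lamb3 ranged from 7.63 to 8.25 (median 7.97) against 6.29 to 6.81 (median 6.58; difference 1.33, SE 0.07). In none of these 4 genes did the basal and luminal samples overlap.

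The balance of Lama5 ran the other way, at 6.43 to 7.30 in basal and 7.06 to 8.56 in luminal samples, a difference of -0.73 (SE 0.07) with overlapping ranges. Lamc1, the gamma chain of most trimers, was higher in basal cells by 0.86 (SE 0.07). Receptors of laminin were higher in basal cells too: Itga3 by 1.22 (SE 0.08) and Itga6 by 0.63 (SE 0.09), with no overlap for either. Itgb4 ranged from 7.29 to 7.86 in basal and from 7.29 to 8.03 in luminal samples, and its difference did not pass the test. Itgb1 ranged from 10.61 to 11.04 in basal and from 10.50 to 11.06 in luminal samples, and was higher in basal cells by 0.14 (SE 0.04), a call lost without basal CD49f-high parous replicate 2. Itgb3 was higher in basal cells by 0.45 (SE 0.12), with overlapping ranges.

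Among collagen receptor chains the pair of neighbours was split between the lineages. Itga1 ranged from 6.39 to 9.04 in basal samples (median 7.18) and from 4.99 to 5.59 in luminal samples (median 5.16), a difference of 2.20 (SE 0.13). Itga2 ranged from 7.16 to 9.29 (median 7.96) against 9.08 to 10.52 (median 9.63), a difference of -1.56 (SE 0.13). Each basal sample thus lay above each luminal one for Itga1, while for Itga2 the ranges met at the top of the basal group. Itga9, whose product binds tenascin and other ligands, was higher in basal cells by 2.01 (SE 0.09). Itga8, an RGD-binding chain, ranged from 8.05 to 8.83 in basal samples, from 7.09 to 9.19 in luminal Sca1- and from 4.98 to 5.78 in luminal Sca1+ samples. Its basal minus luminal difference of 1.66 (SE 0.10) came with a luminal Sca1- mean of 8.26, which did not differ beyond the test from the basal CD49f-low mean of 8.29 (adjusted p = 0.933) or the basal CD49f-high mean of 8.61 (adjusted p = 0.0901). Itgb6, which partners Itgav in activating latent TGF-beta, ranged from 5.53 to 6.91 in basal and from 7.53 to 8.79 in luminal samples, a difference of -1.89 (SE 0.14). Smaller differences were called for Itgav (-0.28, SE 0.07) and Itgae (-0.27, SE 0.07), the second of these among the 8 dim members. The Itgav call did not hold with basal CD49f-low cells alone against luminal cells, an alternative chosen after seeing the data (-0.22, limma adjusted p = 0.0564).

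In all, 18 of 36 members were called higher in basal cells and 5 lower, beside 15.5% and 19.5% of all genes. Over all genes 44.3% of the 6983 calls were higher in basal cells. After quantile normalization it was 56.4% of 7612 calls, and 26 members were called. The members' median difference was 0.14 (0.00 over all genes) and their median size 0.42 (0.12 over all genes).

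**Figure D2:**
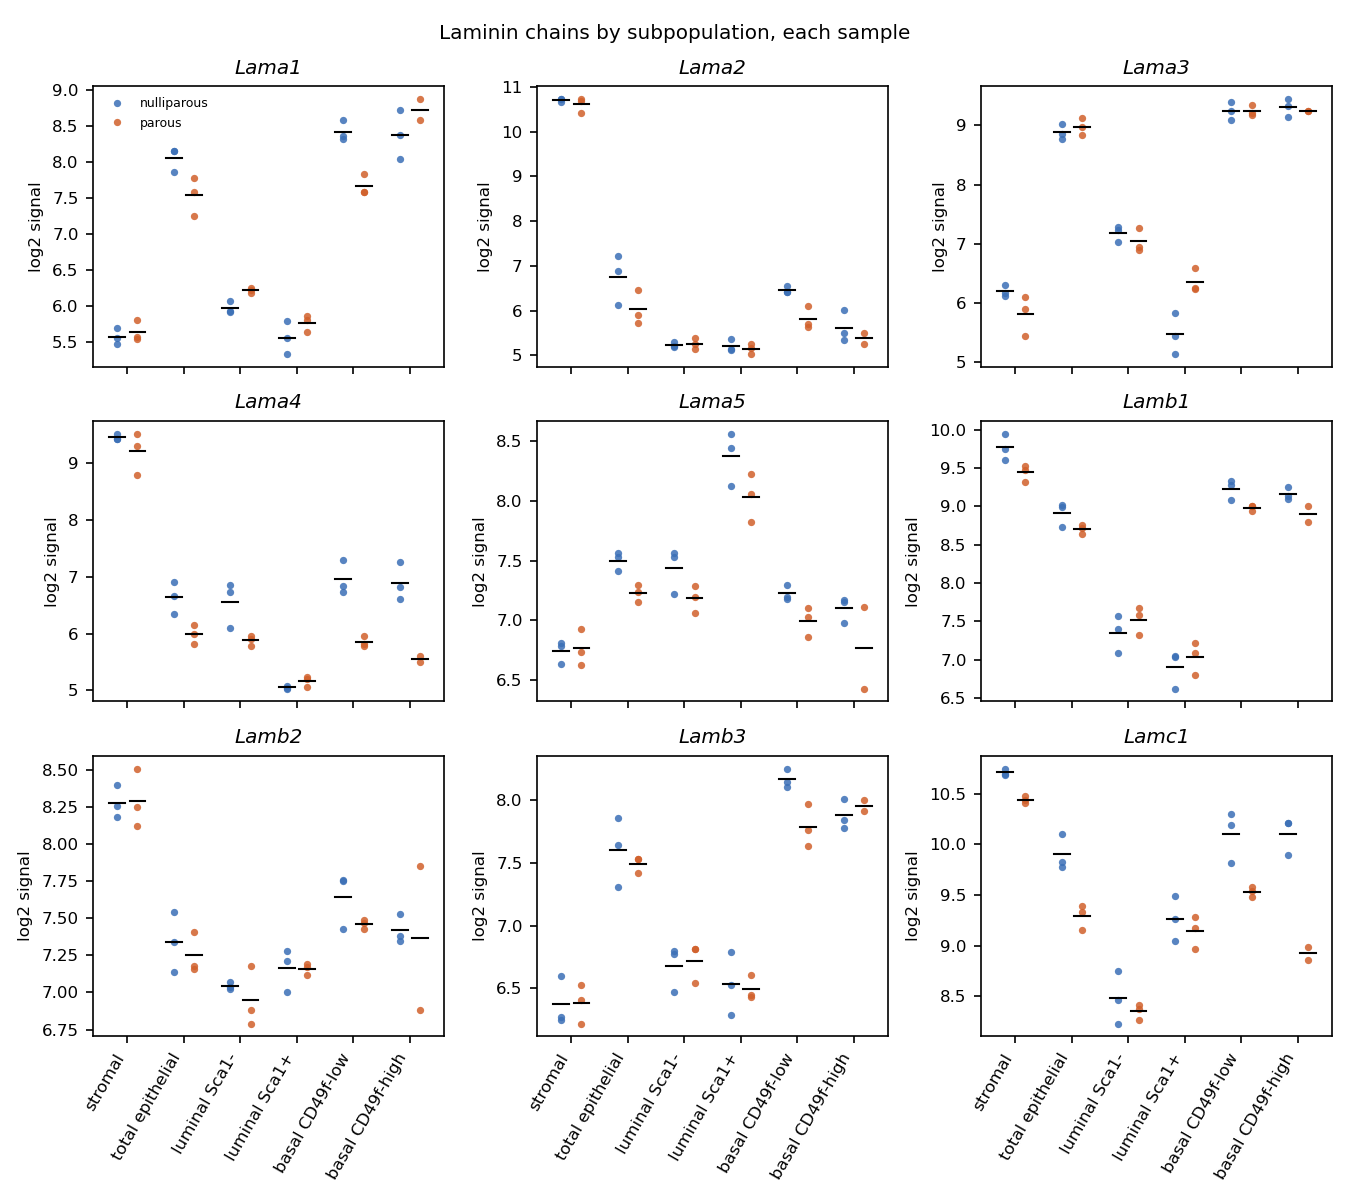
Log2 signal (vertical axis) of 9 laminin chains in each sample, by subpopulation (horizontal axis); blue points are nulliparous and orange points parous samples, and black bars are group means. Each panel has its own scale. Lama3 sits at 9.09 to 9.45 in every basal sample, Lama2 is above 10 only in stroma, and the parous points of Lama4 and Lamc1 lie below the nulliparous points in both basal subpopulations.

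Luminal Sca1+ and Sca1- cells, 6 samples each, differed most in Itgb8 and Itga8. Itgb8, the other TGF-beta activating partner of Itgav, ranged from 9.11 to 9.94 in Sca1- cells (median 9.61) and from 5.77 to 7.20 in Sca1+ cells (median 6.28), a difference of -3.25 (SE 0.20, limma adjusted p = 1.26e-12). Itga8 ranged from 7.09 to 9.19 (median 8.36) against 4.98 to 5.78 (median 5.30), a difference of -2.94 (SE 0.14). No sample of either type overlapped the other for these genes. Luminal Sca1+ cells had the lowest mean of the 6 subpopulations for both chains, and the step to the next higher subpopulation, stroma, passed the test for each.

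The laminin alpha chains also traded places within the luminal compartment. Lama5 ranged from 7.82 to 8.56 in Sca1+ and from 7.06 to 7.56 in Sca1- cells (difference 0.89, SE 0.10), and Lamc1 from 8.97 to 9.49 against 8.23 to 8.75 (0.79, SE 0.09). Lama3 ranged from 5.14 to 6.59 in Sca1+ and from 6.90 to 7.29 in Sca1- cells (-1.20, SE 0.11), and Lama4 from 5.03 to 5.24 against 5.79 to 6.85 (-1.11, SE 0.13). All 4 were free of overlap. Lamb1 (-0.47, SE 0.10) and Lama1 (-0.43, SE 0.11) were lower in Sca1+ cells as well. Itgb5 (0.74, SE 0.12), a vitronectin receptor chain, and Itga5 (0.62, SE 0.14), the fibronectin receptor alpha chain, were higher in Sca1+ cells. Itga3 (0.33, SE 0.11) and Itgb4 (0.27, SE 0.08) were called too, but the Itga3 call was lost without luminal Sca1- parous replicate 2 (adjusted p = 0.137) and the Itgb4 call without luminal Sca1+ nulliparous replicate 2 (adjusted p = 0.109), among other samples. In all 6 members were called higher and 7 lower, beside 9% and 7.11% of all genes. Basal markers moved the same way as several of these chains: the list averaged 6.58 and 7.13 in the nulliparous and parous Sca1- groups and 6.17 and 6.47 in the Sca1+ groups. Their part in the Lama3 and Itga8 differences was not tested.

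Basal CD49f-high and CD49f-low cells, sorted apart on the Itga6 protein, hardly differed in Itga6 signal. Itga6 was at 10.72, 10.78 and 10.85 in nulliparous and 10.65 and 10.76 in parous CD49f-high samples. In CD49f-low cells it was at 10.32, 10.78 and 10.81 in nulliparous and 10.88, 10.89 and 10.76 in parous samples. The difference was 0.00 (SE 0.13), with overlapping samples. The called members were Lama1 (0.51, SE 0.12, limma adjusted p = 0.0134), Itgad (0.35, SE 0.09) and Lama2 (-0.64, SE 0.15), that is 2 higher and 1 lower beside 1.05% and 2.48% of all genes. All 3 calls were lost without basal CD49f-high parous replicate 3, with adjusted p of 0.0571, 0.114 and 0.0588, and with array weights (0.0913, 0.144 and 0.0637). They were also lost with only these samples fitted. The difference of 2000 and 10000 cells ran with this comparison and cannot be told apart from it.

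The order of the 6 subpopulations followed a few patterns. Lama3, Lamb3, Itga3 and Itga6 were highest in the basal subpopulations and total epithelial cells, and the 2 basal means of each did not differ beyond their spread (differences of 0.00 to 0.06). Lama2, Lama4, Lamb1, Lamb2, Lamc1, Itga11, Itga5 and Itgb3 were highest in stroma, each with a step to the next subpopulation that passed the test. Itgb1 spanned only 0.19 log2 units between the highest and the lowest subpopulation mean, and none of the 5 steps between neighbours passed. Itga2 was highest in luminal Sca1- cells at a mean of 9.91, ahead of Sca1+ cells at 9.42 by 0.50, a step that missed the threshold (adjusted p = 0.0522). The 8 dim members spanned 0.17 to 0.44.

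The 12 group means gave a description of how partner chains moved together, with no test, since the groups share cell lineages, the array design and possibly pools of mice. Lama3 and Lamb3, partners in 1 trimer, correlated at r = 0.96 over the 12 group means, Lama2 and Lamb2 at 0.94, and Lamb2 and Lamc1 at 0.87. Itga6 and Itgb4 correlated at 0.78. Lama5 ran opposite to Lamb1 (r = -0.82) and was only loosely tied to Lamc1 (-0.35). Itgav correlated at 0.79 with Itgb6 and at -0.83 with Itgb3, and Itga6 with Itgb1 at 0.44.

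**Figure D3:**
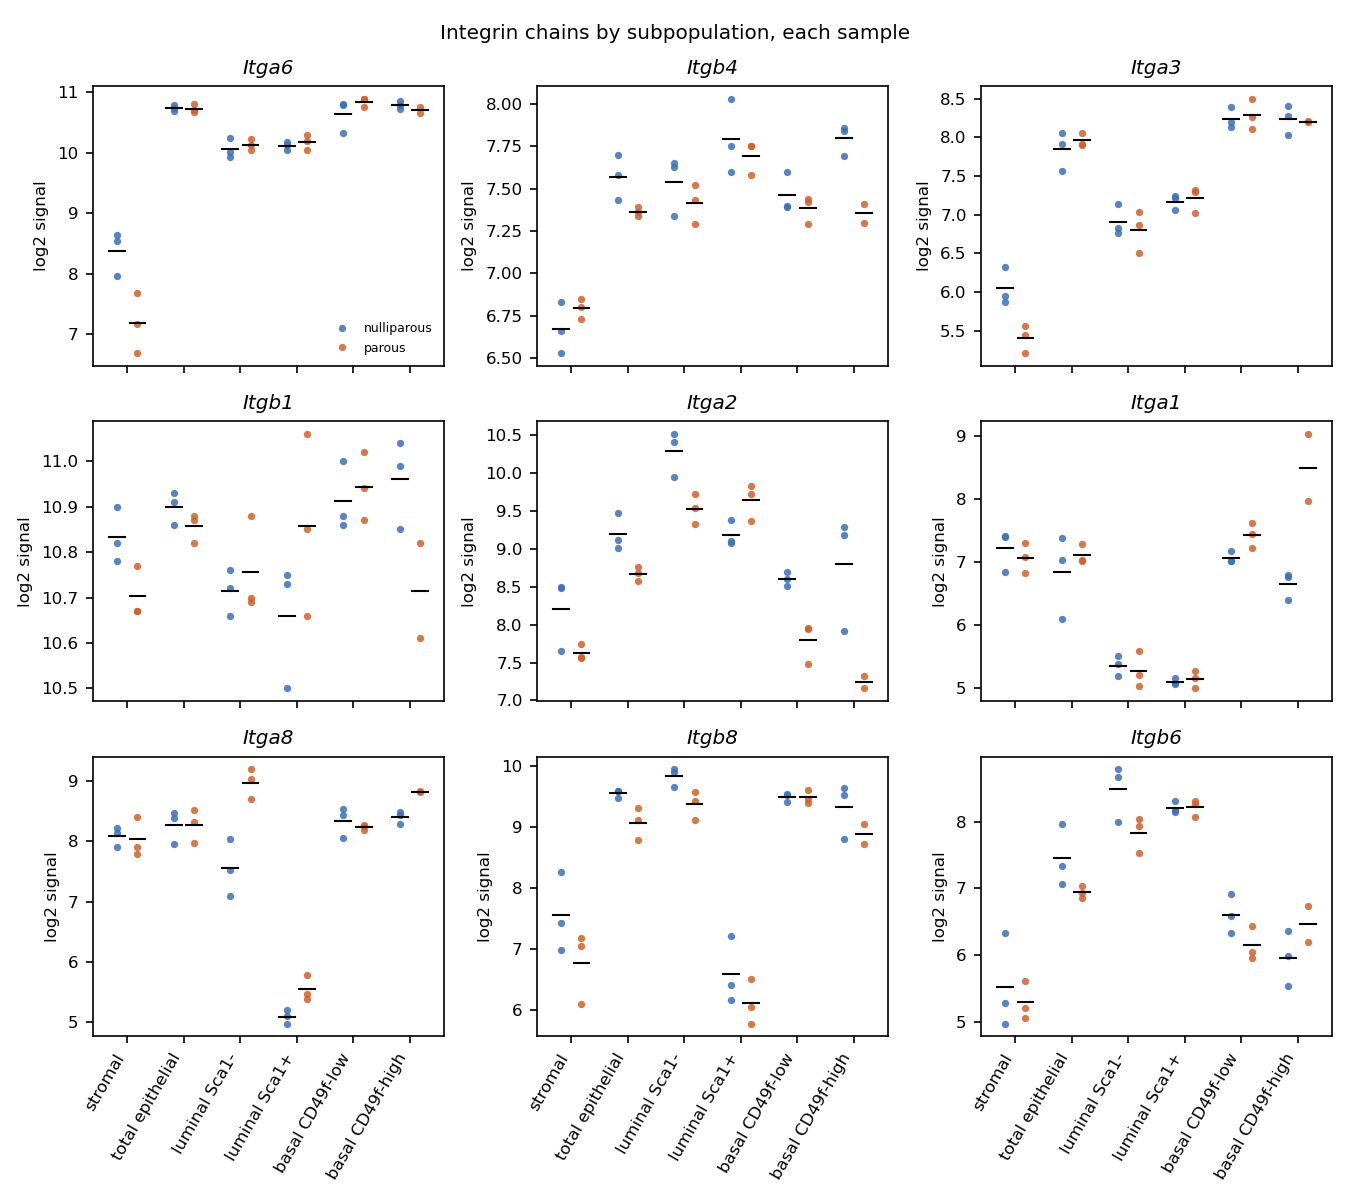
Log2 signal (vertical axis) of 9 integrin chains in each sample, by subpopulation (horizontal axis); blue points are nulliparous and orange points parous samples, and black bars are group means. Each panel has its own scale, so the Itgb1 panel spans a far narrower range than the Itga8 panel. Parous luminal Sca1- samples of Itga8 lie at 8.69 to 9.19, above the nulliparous samples at 7.09 to 8.03, and parous basal CD49f-high samples of Itga1 and Itga2 lie on opposite sides of the nulliparous ones.

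The effect of an early pregnancy was then asked in each subpopulation, as parous minus nulliparous. Between 1 and 6 of the 36 members were called per subpopulation (2.78% to 16.7%), beside 89 to 1806 of all 19937 genes. Of the 10 laminin chains, 3 fell in basal CD49f-low cells (Lama1, Lama4 and Lamc1) and 2 in basal CD49f-high cells (Lama4 and Lamc1), beside 0.682% and 5.05% of all genes. The collagen receptor chains Itga1 and Itga2 changed in opposite directions in basal CD49f-high cells. Itga8 rose in luminal Sca1- cells, Lama3 rose in luminal Sca1+ cells and Itga6 fell in stromal cells. Since each group held at most 3 samples, calls rest on the spread pooled over all 35 samples. When only the samples of the groups compared were fitted, 10 of the 25 calls on members in the 9 parity contrasts remained.

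In basal CD49f-high cells, 1 member rose and 5 fell, beside 4.01% and 5.05% of all genes. At an unadjusted limma p under 0.05 were 12 of 36 members and 4392 of all 19937 genes. Lama4 was at 6.61, 6.82 and 7.26 in nulliparous and at 5.61 and 5.50 in parous samples, a difference of -1.34 (SE 0.21, limma adjusted p = 1.3e-04). Lamc1 was at 9.90, 10.21 and 10.21 in nulliparous and at 8.99 and 8.86 in parous samples, a difference of -1.18 (SE 0.15, adjusted p = 9.15e-06). The parous samples lay below the nulliparous ones in both genes.

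Itga1, a collagen receptor chain, was at 6.76, 6.80 and 6.39 in nulliparous and at 9.04 and 7.97 in parous basal CD49f-high samples, a difference of 1.86 (SE 0.27, adjusted p = 5.77e-05). Itga2, its neighbour whose promoter is printed with that of Itga1, was at 7.92, 9.19 and 9.29 in nulliparous and at 7.16 and 7.32 in parous samples, a difference of -1.56 (SE 0.28, adjusted p = 5.46e-04). The histories did not overlap in either gene. Without parous replicate 2 the Itga1 difference was 1.32 (adjusted p = 0.00593). Itgav (-0.52, SE 0.16, limma adjusted p = 0.0334) and Itgb4 (-0.44, SE 0.13, adjusted p = 0.0321) also fell. The Itgav call was lost without parous replicate 3 (adjusted p = 0.564) or without nulliparous replicate 2 or 3, and the Itgb4 call without parous replicate 2 (adjusted p = 0.181) or 3 or nulliparous replicate 1 or 3. Both were also lost with array weights (adjusted p of 0.172 and 0.239) and after quantile normalization (0.0620 and 0.0564). With only the basal CD49f-high samples fitted, all 6 calls were lost, the adjusted p being 0.184 for Itga1, 0.307 for Itga2, 0.169 for Lama4 and 0.149 for Lamc1. Fibroblast markers averaged 6.35 ± 0.25 in nulliparous and 5.96 ± 0.09 in parous samples (log2 sums of 10.72 to 11.08 and 10.25 to 10.34), with 1 of 10 called lower. Endothelial markers averaged 5.82 ± 0.45 and 5.41 ± 0.29 (overlapping log2 sums of 8.96 to 10.27 and 8.69 to 9.13), with 1 of 10 called lower. Leukocyte markers averaged 5.28 ± 0.33 and 5.33 ± 0.11, with 1 of 15 called higher. Basal markers averaged 10.00 ± 0.17 and 10.49 ± 0.06 (log2 sums of 13.87 to 14.15 and 14.31 to 14.46), with 3 of 10 called higher. Pericyte and vessel smooth muscle markers averaged 6.06 ± 0.15 and 6.15 ± 0.02 (log2 sums of 9.29 to 9.58 and 10.13 to 10.17), with Mcam (1.33) called higher of 8. Schwann and nerve markers averaged 5.84 ± 0.26 and 6.47 ± 0.55 (log2 sums of 8.40 to 8.51 and 9.09 to 9.24), with Sox10 (0.95) called higher of 4. Their part in these differences was not tested.

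In basal CD49f-low cells 0 members rose and 3 fell, beside 0.286% and 0.682% of all genes. The unadjusted limma p was under 0.05 for 7 of 36 members and 2093 of all 19937 genes. Lama4 was at 6.73, 7.30 and 6.84 in nulliparous and at 5.81, 5.96 and 5.78 in parous samples, a difference of -1.11 (SE 0.19, limma adjusted p = 0.00118). Lama1 was at 8.32, 8.59 and 8.36 against 7.83, 7.59 and 7.59 (-0.75, SE 0.15, adjusted p = 0.00959). Lamc1 was at 9.82, 10.30 and 10.19 against 9.58, 9.54 and 9.48 (-0.57, SE 0.13, adjusted p = 0.0304). The histories did not overlap in any of these 3 chains. The Lama4 call held without any single sample and with basal CD49f-low samples alone (adjusted p = 0.0384). The Lama1 and Lamc1 calls were lost with those samples alone, and both were lost without parous replicate 2 or 3 or nulliparous replicate 2 (adjusted p of 0.0932 and 0.210 without the last). The Lamc1 call was also lost without parous replicate 1 or nulliparous replicate 3. Itga2 was lower here as well (-0.81, SE 0.25) and Itga1 higher (0.36, SE 0.24), with adjusted p of 0.143 and 0.666. Fibroblast markers averaged 7.00 ± 0.23 in nulliparous and 6.42 ± 0.10 in parous samples (log2 sums of 11.12 to 11.46 and 10.54 to 10.77), with 1 of 10 called lower. Lama2, like Lama4 a stromal chain, differed by -0.66 (SE 0.20, adjusted p = 0.139). The part of fibroblast signal in the Lama4 fall was not tested.

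In total epithelial cells, which mix basal and luminal cells, Lamc1 was the 1 member that fell and 0 rose, beside 0.281% and 0.166% of all genes. At an unadjusted limma p under 0.05 were 6 of 36 members and 1448 of all 19937 genes. Lamc1 was at 9.83, 10.10 and 9.78 in nulliparous and at 9.33, 9.15 and 9.39 in parous samples, a difference of -0.62 (SE 0.13, limma adjusted p = 0.0229). The call was lost without any of the parous replicates 1, 2 and 3 or nulliparous replicate 2 (adjusted p = 0.250 without the last) and with total epithelial samples alone (adjusted p = 0.102). Lama2 (-0.72, SE 0.20), Lama4 (-0.65, SE 0.19) and Lama1 (-0.52, SE 0.15) were lower without passing the test (adjusted p of 0.143, 0.173 and 0.182). Fibroblast markers averaged 7.02 ± 0.31 in nulliparous and 6.57 ± 0.26 in parous samples (log2 sums of 11.06 to 11.89 and 10.85 to 11.34). The log2 sums of basal markers (13.66 to 13.87 and 13.89 to 14.01), pericyte and vessel smooth muscle markers (9.31 to 9.65 and 9.76 to 9.89) and Schwann and nerve markers (8.25 to 8.37 and 8.46 to 8.74) were higher in parous samples without overlap. Their list means were 9.78 ± 0.13 and 9.92 ± 0.08, 5.99 ± 0.23 and 6.10 ± 0.14, and 5.60 ± 0.01 and 5.81 ± 0.11. Of the pericyte and vessel smooth muscle markers 1 of 8 was called higher, and 0 of the other lists were called. Their part was not tested.

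In luminal Sca1- cells, Itga8 rose and 0 members fell, beside 0.662% and 0.341% of all genes called higher and lower. The unadjusted limma p was under 0.05 for 5 of 36 members and 2268 of all 19937 genes. Over all genes 66% of calls were higher in parous cells, and 55.7% after quantile normalization. Itga8 was at 8.03, 7.09 and 7.53 in nulliparous and at 9.19, 9.03 and 8.69 in parous samples, a difference of 1.42 (SE 0.20, limma adjusted p = 9.71e-05). All parous samples lay above all nulliparous ones. The call held without any single sample (largest adjusted p = 0.00220) and with the luminal Sca1- samples alone (adjusted p = 0.0328). Basal markers averaged 6.58 ± 0.09 in nulliparous and 7.13 ± 0.11 in parous samples (log2 sums of 9.98 to 10.32 and 10.63 to 10.85), and 3 of 10 were called higher: Krt5 (1.30), Cnn1 (1.21) and Myh11 (0.93). Of the 17 other members called higher in basal than in luminal cells, 0 were called here, with differences from -0.68 (Lama4) to 0.25 (Lama1, whose histories did not overlap). The part of basal signal in the Itga8 rise was not tested. Lama4 (-0.68, SE 0.19) and Itga2 (-0.76, SE 0.25) were lower, with adjusted p of 0.0835 and 0.165.

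In luminal Sca1+ cells, Lama3 rose and 0 members fell, beside 0.426% and 0.181% of all genes. At an unadjusted limma p under 0.05 were 6 of 36 members and 1322 of all 19937 genes. Lama3 was at 5.14, 5.44 and 5.83 in nulliparous and at 6.25, 6.23 and 6.59 in parous samples, a difference of 0.88 (SE 0.16, limma adjusted p = 0.00317) with no overlap. Lamb3, its partner chain, differed by -0.04 (SE 0.14). The Lama3 call held without any single sample (largest adjusted p = 0.0461, without nulliparous replicate 1) but was lost when number 1 was left out of every nulliparous group, a choice made after seeing the data (adjusted p = 0.0570), and with luminal Sca1+ samples alone (adjusted p = 0.135). Basal markers averaged 6.17 ± 0.21 in nulliparous and 6.47 ± 0.14 in parous samples (log2 sums of 9.41 to 9.85 and 9.89 to 10.27), with Krt14 called higher (1.54). Endothelial markers averaged 5.22 ± 0.15 and 5.73 ± 0.17 (log2 sums of 8.52 to 8.82 and 9.06 to 9.46), with 0 of 10 called. Fibroblast marker sums were lower in parous samples (11.14 to 11.48 and 9.99 to 10.71) and leukocyte marker sums higher (10.19 to 10.25 and 10.46 to 10.68), both without overlap. The list means hardly moved, at 6.06 ± 0.09 and 6.05 ± 0.10 for fibroblast and 5.39 ± 0.06 and 5.41 ± 0.08 for leukocyte markers. Of these markers, 1 of 10 fibroblast genes was called lower and 0 of 15 leukocyte genes were called. Their part was not tested.

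In stromal cells, Itga6 fell and 0 members rose, beside 0.492% and 0.105% of all genes. The unadjusted limma p was under 0.05 for 9 of 36 members and 1827 of all 19937 genes. Itga6 was at 8.54, 8.64 and 7.97 in nulliparous and at 7.17, 7.68 and 6.69 in parous samples, a difference of -1.20 (SE 0.17, limma adjusted p = 1.1e-04), and the histories did not overlap. The call held without any single sample (largest adjusted p = 0.00179) but not with stromal samples alone (adjusted p = 0.238). Itga3, another laminin receptor chain, was at 5.87, 6.32 and 5.95 against 5.44, 5.56 and 5.21 (-0.64, SE 0.16, adjusted p = 0.0529). Itgb4 differed by 0.12 (SE 0.12) and Itgb1 by -0.13 (SE 0.09). Basal markers averaged 7.91 ± 0.04 in nulliparous and 7.46 ± 0.10 in parous samples (overlapping log2 sums of 11.99 to 12.12 and 11.83 to 12.21), with 2 of 10, Krt5 (-1.85) and Krt14 (-2.00), called lower. Endothelial markers averaged 7.26 ± 0.25 and 6.68 ± 0.14 (log2 sums of 11.06 to 11.69 and 10.28 to 10.55), with Pecam1 (-1.55) called lower. Of 10 fibroblast markers 1 was called lower, as was 1 of 15 leukocyte markers. Pericyte and vessel smooth muscle markers averaged 7.66 ± 0.21 and 7.79 ± 0.04, with 0 of 8 called, and 0 of 11 luminal markers were called. The part of these cell types in the Itga6 fall was not tested.

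Averaged over the 4 sorted epithelial subpopulations, 2 members rose and 4 fell, beside 2.72% and 3.49% of all genes. At an unadjusted limma p under 0.05 were 11 of 36 members and 3574 of all 19937 genes. Lama4 (-0.75, SE 0.10), Lamc1 (-0.50, SE 0.07), Itga2 (-0.67, SE 0.13) and Lama5 (-0.29, SE 0.07) fell, and Itga1 (0.55, SE 0.13) and Itga8 (0.55, SE 0.10) rose. Over the 3 subpopulations of 10000 cells, a choice made after seeing the data, Itga1 was at 0.11, Itga2 at -0.37 and Lama5 at -0.27 and their calls were lost (adjusted p of 0.825, 0.204 and 0.0758), whereas those of Lama4 (-0.56), Lamc1 (-0.28) and Itga8 (0.59) remained. The Lama5 call was also lost without basal CD49f-high parous replicate 3 (adjusted p = 0.0817) and with only the samples of these 4 subpopulations fitted (adjusted p = 0.0554). Itga6 (0.07, SE 0.09), Itga3 (-0.01, SE 0.08), Itgb1 (0.00, SE 0.04), Lamb3 (-0.07, SE 0.07) and Itgb3 (-0.12, SE 0.12) did not pass the test.

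**Figure D4:**
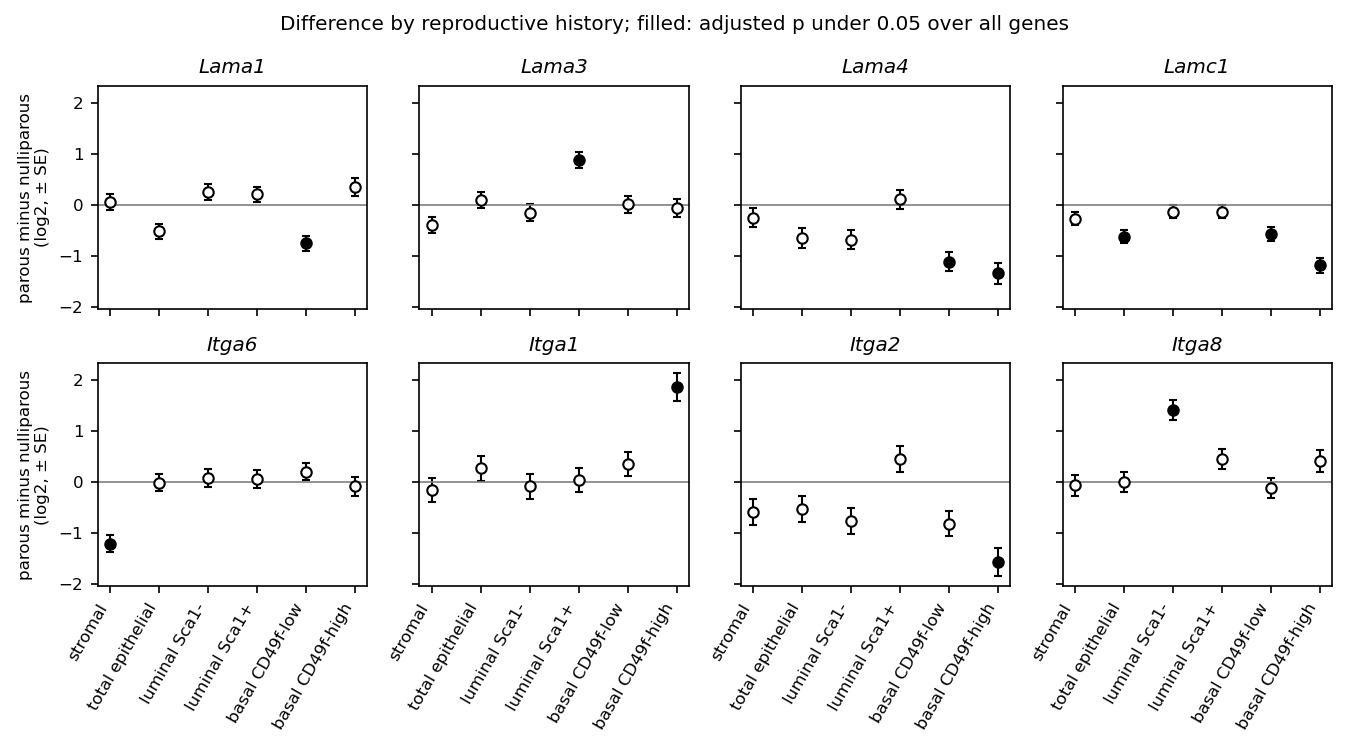
Parous minus nulliparous difference (log2 units, vertical axis, bars are 1 SE) of 8 members in the 6 subpopulations (horizontal axis); filled points passed the adjusted p of 0.05 over all genes. Each of the 8 passed in 1 to 3 subpopulations, with Lama4 at -1.11 and -1.34 in the basal subpopulations against 0.11 in luminal Sca1+ cells, and Itga1 at 1.86 in basal CD49f-high cells.

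Whether the difference by history itself varied between cell types was tested directly. Across the 6 subpopulations it varied for 8 members, beside 2.8% of all genes: Lama1, Lama3, Lama4, Lamc1, Itga6, Itga1, Itga2 and Itga8 (limma's moderated F test, adjusted p of 0.00301 to 0.0275). The Itga1 call was lost without basal CD49f-high parous replicate 2, the Lama3 call without luminal Sca1+ parous replicate 3 or nulliparous replicate 1, and the Itga2 call without any 1 of 7 samples. Between the luminal pair and the basal pair of subpopulations, 4 members differed upward and 1 downward, beside 1.34% and 0.692% of all genes. The upward members were Itga2 (1.03, SE 0.26), Lama4 (0.94, SE 0.19), Itga8 (0.78, SE 0.20) and Lamc1 (0.75, SE 0.14), and the downward one was Itga1 (-1.13, SE 0.25). For Itga8 the call was lost without any 1 of 15 samples and for Itga2 without any 1 of 8, with adjusted p of at most 0.0811 and 0.0583; the Itga8 call was also lost after quantile normalization (adjusted p = 0.0599), and both with only these samples fitted (0.0507 for Itga8, 0.0589 for Itga2). These comparisons use samples of the parity contrasts given before and are not separate evidence. Between stromal and total epithelial cells, Itga6 differed downward (-1.20, SE 0.24, limma adjusted p = 0.0180) and 0 members upward, beside 0.125% and 0.0401% of all genes. The unadjusted limma p was under 0.05 for 6 of 36 members and 1150 of all 19937 genes. This Itga6 call was lost without any 1 of 7 samples, with an adjusted p of at most 0.0666. It was also lost with only these samples fitted (adjusted p = 0.262).

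Genes that work with these chains were followed as lists. Of 20 other basement membrane genes, 16 were higher and 1 lower in basal than in luminal cells, beside 15.5% and 19.5% of all genes (median 0.59, against 0.00 over all genes). Sparc, a collagen-binding matrix protein (3.62, SE 0.09), Ntn4, a laminin-binding netrin (1.33, SE 0.13), and the collagen IV chains Col4a2 (1.11, SE 0.08) and Col4a1 (1.04, SE 0.09) had the largest differences, and Npnt, the nephronectin ligand of Itga8 (-0.63, SE 0.09), was the lower one. In stroma, 10 of the 20 were higher and 6 lower than in total epithelial cells, beside 13.6% and 15.6% of all genes. Nid1, the nidogen that links laminin to collagen IV, was at 3.39 (SE 0.18). By history, 3 fell in basal CD49f-low cells, beside 0.682% of all genes: Frem2 (-1.04, SE 0.22), Dag1, the dystroglycan laminin receptor (-0.71, SE 0.13), and Col4a2 (-0.69, SE 0.16). In basal CD49f-high cells 1 fell, Col4a1 (-0.81, SE 0.19), beside 5.05% of all genes. In luminal Sca1+ cells 2 rose, Nid1 (1.20, SE 0.25) and Sparc (1.09, SE 0.17), beside 0.426% of all genes. In that subpopulation endothelial marker sums were also higher in parous samples (9.06 to 9.46, against 8.52 to 8.82). The part of endothelial signal was not tested. In stromal cells 1 fell, Frem1 (-1.17, SE 0.20), beside 0.492% of all genes. The difference by history was more positive in luminal than in basal cells for 6 of the 20, beside 1.34% of all genes. Nid1 (1.24, SE 0.26), Frem2 (0.90, SE 0.23), Sparc (0.82, SE 0.17) and Col4a2 (0.67, SE 0.16) led.

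Of 7 hemidesmosome genes, 5 were higher in basal than in luminal cells and 1 lower, beside 15.5% and 19.5% of all genes. All 7 were lower in stroma than in total epithelial cells, beside 15.6% of all genes. Col17a1 (1.47, SE 0.08) and Dst (1.03, SE 0.06), which bind the Itga6 and Itgb4 dimer or its keratin link, were higher in basal cells, while Plec was lower (-0.31, SE 0.06). In luminal Sca1+ against Sca1- cells 4 were higher and 2 lower, beside 9% and 7.11% of all genes. Dst (0.83, SE 0.08), Plec (0.78, SE 0.08) and Cd151 (0.74, SE 0.17) were among the higher ones, and the keratins Krt5 (-0.76, SE 0.13) and Krt14 (-0.57, SE 0.15) were lower. By history, only the keratins Krt5 and Krt14 were called in single subpopulations, both lower in stromal cells, Krt5 higher in luminal Sca1- cells and Krt14 higher in luminal Sca1+ cells. The shares of all genes called in these directions were 0.492%, 0.662% and 0.426%.

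Of 17 measured ligands of other integrins, 7 were higher and 4 lower in basal than in luminal cells, beside 15.5% and 19.5% of all genes. Postn, whose product periostin binds Itgav dimers (4.59, SE 0.17), Vcam1 (1.89, SE 0.11), Thbs1 (1.82, SE 0.10) and Icam1 (1.58, SE 0.09) led the higher ones, and Cdh1, the ligand of Itgae (-1.15, SE 0.18), the lower ones. In stroma, 9 were higher and 4 lower than in total epithelial cells, beside 13.6% and 15.6% of all genes. The fibronectin gene Fn1 was at 3.96 (SE 0.17) and the vitronectin gene Vtn at 2.99 (SE 0.13). In luminal Sca1+ cells, 5 were lower and 2 higher than in Sca1- cells, beside 7.11% and 9% of all genes. Thbs1 (-2.73, SE 0.13), Postn (-2.42, SE 0.23), Mfge8 (-2.06, SE 0.16) and Tnc (-1.91, SE 0.18) had the largest differences. By history, Tnc, a tenascin that binds Itga8 and Itga9 dimers, rose in luminal Sca1- cells (1.48, SE 0.25), the subpopulation in which Itga8 rose. Thbs1 fell in basal CD49f-low (-0.75, SE 0.18) and CD49f-high cells (-0.76, SE 0.21), and Vcam1 fell in basal CD49f-high (-1.06, SE 0.23) and rose in luminal Sca1+ cells (0.90, SE 0.21). Of all genes, 0.662% rose in luminal Sca1- and 0.426% in luminal Sca1+ cells, and 0.682% fell in basal CD49f-low and 5.05% in basal CD49f-high cells.

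Of 24 measured integrin adaptor and signalling genes, 11 were higher and 0 lower in basal than in luminal cells, beside 15.5% and 19.5% of all genes. Fermt1 (1.71, SE 0.10), Tns4 (1.50, SE 0.12), Cav1 (1.44, SE 0.07) and Parva (1.18, SE 0.10) led. In stroma 12 were lower, among them Fermt1 (-2.96, SE 0.13), and 3 higher than in total epithelial cells, beside 15.6% and 13.6% of all genes. By history, 1 of the 24 rose in basal CD49f-high cells, Zyx (0.71, SE 0.15), beside 4.01% of all genes, and 1 in luminal Sca1+ cells, Tns3 (0.97, SE 0.20), beside 0.426% of all genes.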

How the data were processed

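Gene expression had been measured on 1-colour Affymetrix arrays in 35 samples, grouped by the labels into 6 subpopulations and 2 histories. The deposited values are log2 signals per probe set, with column medians of 5.813 to 5.924. Per the submitters' processing notes the affy software was used. Its version and its background correction, normalization and summary method were, in each case, not given in the sources used here. Precision is limited by the number of arrays.

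Of 34760 probe sets, 21640 had a single symbol, 1321 several and 11799 none in GEO's platform annotation, which can be old. The probe set with the highest mean was kept per gene, leaving 19937 genes. All 36 members had the same symbol in RefSeq. Of these, Itgad had more than 1 probe set.

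A mean for each of the 12 groups was fitted over all samples with limma 3.58.1 under R 4.3.3 (lmFit, then eBayes with an intensity trend), with no covariate. P values were adjusted by Benjamini-Hochberg over all genes, and the fit was tested on simulated data. Alternatives were eBayes without a trend, array weights, quantile normalization, leaving out dim genes, the mean of probe sets, replicate blocks, fitting only the samples compared, and leaving out each sample.

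Named were members called by history, a panel (Lama1, Lama3, Lama5, Lamb1, Lamb3, Lamc1, Itga2, Itga3, Itga6, Itgb1, Itgb3, Itgb4), the 6 largest called differences per direction between subpopulations, and up to 4 called genes per list and direction. Other members are named for their place in the order of levels or their dim signal. The members, gene lists and comparisons were chosen with earlier results of these data known. P values measure the spread between samples of a group, which were taken as separate pools of mice. The main fit took samples of different groups as independent, although same-numbered ones may share mice, which the labels do not say.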

Additional observations from a re-analysis of the deposited data

Results flagged for a closer look

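The effect of reproductive history differed between cell types for 8 members in the moderated F test over the 6 subpopulations. The adjusted p values of limma were 0.003007 for Itga6, 0.005765 for Itga8, 0.006223 for Lama1, 0.008333 for Lamc1, 0.0084 for Itga1, 0.01089 for Lama4, 0.01304 for Lama3 and 0.02748 for Itga2. The luminal effect minus the basal effect was 1.03 for Itga2, 0.94 for Lama4, 0.78 for Itga8, 0.75 for Lamc1 and -1.13 for Itga1. The stromal effect minus that in total epithelial cells was -1.20 for Itga6. These differences share samples with the effects in single subpopulations.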

How the results depend on the processing

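Direction was followed for all calls by history and for the 6 largest called differences per direction between subpopulations. None of these changed direction under the alternatives run. With single samples left out, only the fit with the largest adjusted p was checked for direction. The other called differences were checked for direction only under quantile normalization, where none changed. The numbers of members called between basal and luminal cells, between luminal Sca1+ and Sca1- cells and between stromal and total epithelial cells stayed within 1.5 times of the values given. In stromal cells the count by history went from 1 to 2 with eBayes without a trend, quantile normalization, dim genes left out, the mean of probe sets or either replicate block, and to 0 with only the samples compared. In total epithelial cells it went from 1 to 2 with array weights or without nulliparous number 1 or 3, and to 0 with only the samples compared. With single samples left out it ranged from 0 to 2, beside 29 to 95 of all genes (89 in the main fit). In luminal Sca1- cells it went from 1 to 3 with array weights and to 2 without nulliparous number 1. With single samples left out it ranged from 1 to 2, beside 81 to 250 of all genes (200 in the main fit). In luminal Sca1+ cells it went from 1 to 0 with only the samples compared or without nulliparous number 1. In basal CD49f-low cells it went from 3 to 1 with only the samples compared. With single samples left out it ranged from 1 to 3, beside 89 to 165 of all genes (193 in the main fit). In basal CD49f-high cells it went from 6 to 0 with only the samples compared. With single nulliparous samples left out it ranged from 4 to 8, beside 1173 to 2312 of all genes (1806 in the main fit). The mean over the 4 sorted epithelial subpopulations went from 6 to 3 when only those of 10000 cells were averaged. The luminal minus basal count went from 5 to 3 with only the samples compared or without nulliparous number 3. With single samples other than parous basal CD49f-high ones left out it ranged from 3 to 5. Over all genes these fits called 311 to 570 (406 in the main fit). The stromal minus epithelial count went from 1 to 0 with only the samples compared or without nulliparous number 1. With single samples left out it ranged from 0 to 1, beside 16 to 48 of all genes (33 in the main fit). The count between basal CD49f-high and CD49f-low cells went from 3 to 0 with array weights or only the samples compared. It went to 1 without nulliparous number 1 or 3. With single samples other than parous CD49f-high ones left out it ranged from 2 to 3. Over all genes these fits called 391 to 928 (705 in the main fit). The F test count went from 8 to 5 without nulliparous number 3. Apart from quantile normalization and single samples left out, calls over all genes were not counted under the alternatives. The causes of these changes in count were not tested, save that fitting only the samples compared leaves fewer samples. Leaving out a nulliparous number and the mean over 3 subpopulations were chosen after seeing the data. The labels do not say that same-numbered samples share mice. Deviations from group means correlated at a mean of 0.13 over 85 pairs of the same history and number, and 43 of these were over 0.1. The mean was -0.06 over 170 pairs of other numbers. Deviations within a group cancel out, so these means are tied and not separate evidence. Within their history all 35 samples correlated best, on average, with their own number, a hint from the data. Same-numbered pairs of the same subpopulation but other history, which cannot share mice, correlated at a mean of 0.06 over 17 pairs, with 4 over 0.1. What the number marks was not tested. The replicate block, fixed or with pool as a random term (consensus correlation 0.07), kept all 25 calls on members by history.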
